A study of Mus musculus with 6 samples.

Results

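The annexins are a family of proteins that bind phospholipid membranes in the presence of calcium. They share a conserved core that carries the calcium and membrane sites and differ in a short tail at the N terminus, which binds partners such as S100 proteins, and they are known for roles in vesicle traffic, membrane repair and the control of inflammation. Of 12 annexin genes in the RefSeq gene table, 10 are described here: Anxa1 to Anxa9 and Anxa11. They were chosen by their family symbols from the 27179 genes of the count table, with earlier results of the same comparison known, so what follows describes these genes and is no independent evidence on the family. All 10 passed the filter on low counts, through which 14842 genes went into the test. Anxa10 and Anxa13 did not, with 0 to 1 and 0 to 2 counts per library.

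RNA was measured in 6 samples of EpCAM-positive cells sorted from mouse lungs at E16.5, late in gestation. Every sample carried Shh-Cre, a recombinase expressed from the Sonic hedgehog gene, which is active in lung epithelium. The 3 control samples (Shh-Cre;Grhl2 f/+, replicates 1, 3 and 7) had a floxed and an intact allele of Grhl2, the gene of an epithelial transcription factor. The 3 Grhl2_cKO samples (Shh-Cre;Grhl2 f/-, replicates 1, 5 and 10) had a floxed and a null allele, so a control cell in which Cre acted still has 1 Grhl2 allele. There were 2 male samples and 1 female sample in each genotype, so the samples of a genotype do not all come from 1 embryo. Whether each sample is 1 embryo is not stated, so a p-value here reflects only how these samples vary, which may be technical in part.

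Library totals ran from 13472216 to 17228762 counts. Grhl2 fell to 74.4% of control (log2 fold change -0.43 ± 0.06 SE, n = 3 per group; edgeR adjusted p = 0.0026), as a sum over all exons, deleted ones included. The 6 epithelial markers summed to 2570 to 3026 CPM (counts scaled to a common library size) in controls and, lower in each knockout library, to 2227 to 2393 CPM in Grhl2_cKO, and the sort marker Epcam itself fell, from 501 to 559 CPM in controls to 335 to 403 CPM. Grhl2_cKO replicate 1 stood apart: its 7 heart muscle markers summed to 220.9 CPM, and in the remaining 5 libraries the sum lay between 19.1 and 42.7 CPM. Values without it are given for the members it moved most.

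Sequence around the start sites was searched for the letters AACCGGTT, the core that grainyhead factors are known to bind, and for the looser AACNNGTT, of which the first is a special case. RefSeq promoter windows (GRCm38.p6, the mm10 build; 250 bases before the start, both strands) were at hand for 8 members in 11 windows, with none for Anxa3 and Anxa6. None of the 11 held either run of letters, which occur in 0.116% and 3.64% of 32851 windows of that length over all genes. TATAAA, the TATA box, was found for Anxa1 and Anxa2 and in 12.4% of all windows. Those stretches are shown because Anxa1 is the member that differed between genotypes and Anxa2 the most abundant one. The TATAAA letters are in capitals, the first stretch lies on the minus strand at chr19:20390686-20390715 and the second on the plus strand at chr9:69453653-69453682.
Anxa1: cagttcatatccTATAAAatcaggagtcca
Anxa2: aggatggggcgggTATAAAagccccaccca
The match begins 32 bases before the RefSeq start in Anxa1 and 17 bases before it in Anxa2. GENCODE M21 places the outermost start of these genes 273 and 63 bases further upstream, so both stretches lie inside its gene models. A match describes letters in a window and not a bound site.

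Levels of different genes are compared as CPM per kilobase of the gene length in the deposited table. In the sorted control cells Anxa2 was the highest annexin, at 446 ± 47.8 CPM per kilobase (SD, n = 3). Anxa4 (154 ± 6.92), Anxa6 (146 ± 11.7) and Anxa1 (128 ± 9.06) followed. The ranges of neighbours among these 3 overlapped across samples, although within each control library Anxa4 lay above Anxa6 and Anxa6 above Anxa1. Below them Anxa5 stood at 68.3 ± 5.61, Anxa3 at 37.7 ± 3.82, Anxa7 at 24.2 ± 1.30 and Anxa11 at 10.03 ± 0.806 CPM per kilobase. Anxa8 (3.75 ± 1.85) and Anxa9 (0.909 ± 0.110) closed the order. From Anxa1 downwards the ranges of neighbours did not overlap. The order and the gaps depend on the length used. Over all GENCODE exons, which are longer for several members, Anxa2 stood at 164.4 ± 17.6 CPM per kilobase. Anxa6 was then second and closer to it, at 132.9 ± 10.6. By that length Anxa4, Anxa5 and Anxa1 lay together at 66.5 ± 2.98, 66.3 ± 5.44 and 61.2 ± 4.34 CPM per kilobase.

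**Figure D1:**
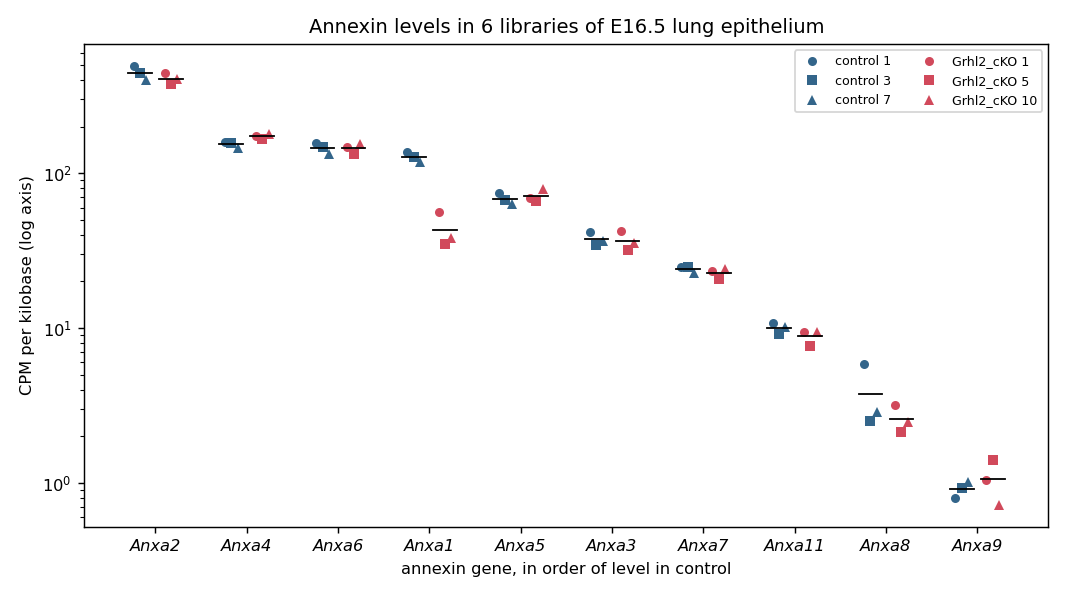
Level of each of the 10 annexins in the 6 libraries, in CPM per kilobase of the deposited gene length on a log axis, with black lines at group means; symbols mark the libraries. Anxa2 lies highest, Anxa9 lowest, and Anxa1 is the gene whose control and Grhl2_cKO points lie far apart.

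The comparison of genotypes asked which genes of the epithelium differ when Grhl2 is deleted. Among the annexins Anxa1 fell to 33.8% of control and no other member passed the test (edgeR quasi-likelihood, Benjamini-Hochberg adjusted p under 0.05 over all tested genes). This is 1 of 10 members, where 3.62% of all tested genes were called, and members were chosen with this comparison in view, so nothing is read from the count. The other 9 had log2 fold changes from -0.51 to 0.19. The median over the 10 was -0.07, beside 0.00 over all genes tested. Control and Grhl2_cKO libraries were fully apart in CPM for 2 members, Anxa1 and Anxa4, against 18.1% of all genes.

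Anxa1 (Entrez 16952, chromosome 19, 20373434 to 20390671, mm10) encodes annexin A1, a protein induced by glucocorticoids that inhibits phospholipase A2 and signals through formyl peptide receptors. It held 190.4, 178.7 and 165 CPM in control replicates 1, 3 and 7. In Grhl2_cKO replicates 1, 5 and 10 it held 78.1, 48.5 and 53.6 CPM. The highest knockout library was thus below every control, and replicate 1 was the highest of the knockouts. The means were 178 ± 12.6 and 60.1 ± 15.8 CPM (SD, n = 3 each), which gives -1.57 ± 0.15 SE on the log2 scale (edgeR adjusted p = 0.00044). It rested on 2548 to 2935 counts per control library and 756 to 1299 per knockout library. Of the 355 genes called lower, 53 fell further. Without Grhl2_cKO replicate 1 the log2 fold change was -1.80 (edgeR adjusted p = 1.88e-05). Over 16 alternative fits Anxa1 was called in each, with values from -1.80 to -1.43 and adjusted p from 9.78e-10 to 0.00932. As a share of the summed annexin level per kilobase Anxa1 went from 12.5% ± 0.168 to 4.68% ± 0.950 (SD, n = 3 each).

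Markers of airway cell types lay lower in the same libraries. The 8 ciliated markers summed to 104.5 to 142.1 CPM in controls and 59.8 to 83.2 CPM in Grhl2_cKO. Of the 8, 5 were called lower, where 3.62% of all tested genes were called in either direction. Foxj1, their transcription factor, was among them (67.7, 56.5 and 52.1 against 34.7, 22.03 and 20.3 CPM, edgeR adjusted p = 0.00597). Tuba1a went the other way, at 0.28. It was higher in each knockout library than in any control, without passing (edgeR adjusted p = 0.250). The 8 secretory markers summed to 251.9 to 352.9 and 107.2 to 216.7 CPM, and all 7 tested members had log2 fold changes below 0 (-1.57 to -0.36), of which 2, Aldh1a1 and Cbr2, passed the test. Mesothelial markers, of the cells that line the lung surface, summed to 43.2 to 83.7 and 21.7 to 64.6 CPM, and none of 5 was called by edgeR, with 1 at an unadjusted p under 0.05: Msln, with -1.58 ± 0.42 as its log2 fold change (edgeR adjusted p = 0.0817). The other members lay on either side of 0, Upk1b at -0.48, Upk3b at -0.18, Lrrn4 at 0.23 and Wt1 at 0.73. In each of these sums, as for Anxa1, replicate 1 was the highest knockout library. That was not particular to them. It also held for the type 1, type 2, basal, fibroblast, smooth muscle, leukocyte and heart muscle sums. It did not hold for the epithelial, endothelial and erythroid sums. Of the epithelial markers, whose sum is given above, 5 of 6 lay below 0 and 1, Epcam, passed the test, while Cdh1 and Krt8 (-0.27 and -0.48; edgeR adjusted p = 0.210 and 0.0832) were lower in each knockout library without passing. Type 1 alveolar markers summed to 1231 to 1658 and 1325 to 1599 CPM, with no call by edgeR among 8 and 0 at an unadjusted p under 0.05. Type 2 alveolar markers summed to 18530 to 20300 CPM in controls and 17810 to 21790 CPM in Grhl2_cKO. They lay on either side of 0, from -0.43 to 0.45 on the log2 scale. Of 8, 1 passed the test, Lpcat1 (log2 fold change -0.27, edgeR adjusted p = 0.0472). Napsa and Sftpb were higher, and Sftpa1 lower, in each knockout library than in any control. They did not pass (edgeR adjusted p = 0.0614, 0.178 and 0.112). Slc34a2 and Lamp3 overlapped between genotypes and lay below 0, at unadjusted edgeR p of 0.0144 and 0.0456. The leukocyte markers summed to 12.5 CPM or less, with Ptprc at 0.609 CPM or less. Fibroblast markers were plainly present, at 856.8 to 1380 CPM in controls and 825.3 to 1706 CPM in Grhl2_cKO. Endothelial markers summed to 117.3 to 179.9 and 155 to 171.7 CPM. No fibroblast or endothelial marker was called by edgeR. The annexin levels are thus those of the sorted cells, whichever types these hold. The part of any of these cell types in the Anxa1 difference was not tested, and in sorted bulk cells fewer cells of a type and less RNA per cell cannot be told apart.

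**Figure D2:**
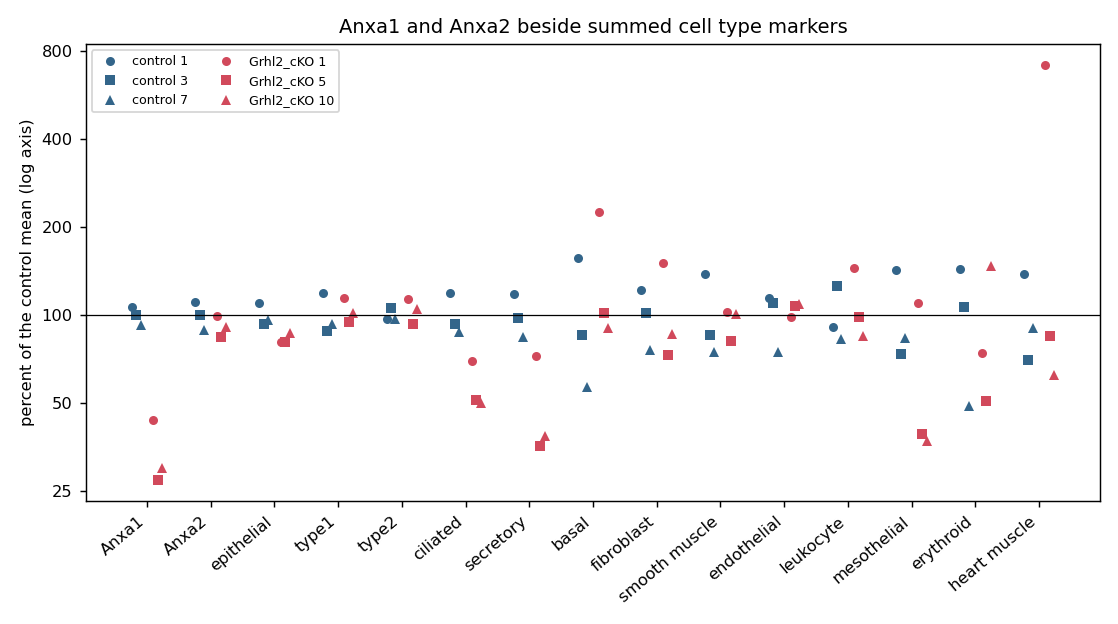
Anxa1, Anxa2 and the summed CPM of 13 cell type marker lists in each library, as percent of the mean of the 3 controls on a log axis. Anxa1 stands at 27.3% to 43.9% in the knockout libraries, the ciliated sum at 50.03% to 69.6% and the secretory sum at 35.8% to 72.4%; heart muscle markers reach 719% in Grhl2_cKO replicate 1.

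The genes whose log2 CPM was most like that of Anxa1 over the 6 libraries, among 11701 compared, were Aldh1a7 (Pearson r = 0.999), Aldh1a1 (0.998) and Prss8 (0.997). The first 2 encode aldehyde dehydrogenases. As paralogs they may share reads, which was not measured, and Aldh1a1 is also 1 of the secretory markers above. Both lie on chromosome 19 beyond Anxa1, at 20492583 to 20643463 (Aldh1a1) and 20692953 to 20727556 (Aldh1a7). Prss8 encodes prostasin, a serine protease of the epithelial surface. It held 160.5, 150.5 and 155.5 CPM in control replicates 1, 3 and 7, and 94.04, 73.3 and 77.5 CPM in Grhl2_cKO replicates 1, 5 and 10. Aldh1a7, Aldh1a1 and Prss8 fell to 49.97%, 52.8% and 52.5% of control, against 33.8% for Anxa1. The libraries fall into groups of 3 that lie apart, so any gene with a step between genotypes has a high r.

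Anxa2 (chromosome 9, 69453683 to 69491792) encodes annexin A2, which forms a complex with S100A10 at the plasma membrane and on endosomes. It held 679, 612.9 and 547.7 CPM in controls and 609.6, 517.9 and 558 CPM in Grhl2_cKO. The ranges overlapped, the log2 fold change was -0.13 ± 0.09 (edgeR adjusted p = 0.701) and the limma-voom 95% interval ran from -0.32 to 0.07. Leaving out 1 library at a time gave -0.20 to -0.04, with -0.19 without Grhl2_cKO replicate 1. A fall of the size seen for Anxa1 lies outside that interval. Anxa2 made up 43.7% ± 1.02 of the summed annexin level per kilobase in controls and 44.8% ± 1.01 in Grhl2_cKO. These shares, like that of Anxa1 above, use the deposited gene lengths and depend on that choice. The summed annexin level was 1019 ± 85.7 and 913.4 ± 64.1 CPM per kilobase, with libraries of the groups overlapping.

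Anxa4 (chromosome 6, 86736840 to 86793634), an annexin known from secretory and absorptive epithelia, was higher in each Grhl2_cKO library than in any control. Its values were 319, 314 and 293 CPM in controls and 349, 335.9 and 357 CPM in Grhl2_cKO. The difference was small, 0.17 ± 0.06 on the log2 scale, and did not pass (edgeR adjusted p = 0.196; 0.148 to 0.522 over its alternatives). The limma-voom interval of 0.04 to 0.30 covers this gene alone, with no adjustment for the number tested.

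Anxa6 (chromosome 11, 54978953 to 55033471), the member with a duplicated core, held 417, 395 and 356 CPM in controls and 390.7, 356 and 410.7 CPM in Grhl2_cKO. Anxa5 (chromosome 3, 36448923 to 36475887), whose protein is widely used to stain exposed phosphatidylserine, held 128, 115.6 and 109 CPM in controls and 119, 113.7 and 135.9 CPM in Grhl2_cKO. Both genes overlapped between genotypes and lay close to no difference, differing by -0.01 ± 0.08 and 0.06 ± 0.08 on the log2 scale (edgeR adjusted p = 0.988 and 0.895). Anxa3 (chromosome 5, 96793385 to 96845968) held 66.9, 54.98 and 58.7 CPM in controls and 67.3, 50.9 and 56.2 CPM in Grhl2_cKO. Replicate 1 was highest in each genotype, and the log2 fold change was -0.05 ± 0.11 (edgeR adjusted p = 0.956), or -0.17 without Grhl2_cKO replicate 1. The limma-voom 95% intervals of these 3 genes ran from -0.18 to 0.16, -0.12 to 0.25 and -0.29 to 0.19.

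Anxa7, Anxa11 and Anxa8 all lie on chromosome 14 (from 20455261, 25842127 and 34085979). Annexins A7 and A11 have long tails and bind the penta-EF-hand proteins sorcin and ALG-2, the latter encoded by Pdcd6. Anxa7 held 67.2 to 74.0 CPM in controls and 61.8 to 71.8 CPM in Grhl2_cKO (log2 fold change -0.08 ± 0.07, edgeR adjusted p = 0.788). Anxa11 held 21.9 to 25.7 and 18.4 to 22.6 CPM (-0.18 ± 0.11, edgeR adjusted p = 0.581). The genotypes overlapped for both, and leaving out 1 library at a time gave -0.13 to -0.02 for Anxa7 and -0.24 to -0.09 for Anxa11. Of the distinct 50-base pieces of Anxa11 transcripts in GENCODE, 16.2% also occur in transcripts of other genes, the pseudogenes Gm2260 and Gm2274 and the antisense gene Anxa11os, so its counts are less certain than those of the other members, for which that share was 3.22% or less. Anxa1 shared no such piece, and a noncoding gene on the strand opposite it has no exon in common with it.

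Anxa8 stood at 10.98 CPM in control replicate 1 and at 4.69 and 5.36 CPM in replicates 3 and 7, against 5.95, 3.98 and 4.62 CPM in Grhl2_cKO replicates 1, 5 and 10. Its log2 fold change of -0.51 ± 0.30 did not pass (edgeR adjusted p = 0.587). It was -0.04 without control replicate 1 and -0.68 without Grhl2_cKO replicate 1, and was not called in either fit. Anxa9 (chromosome 3, 95296093 to 95315180), an annexin with altered calcium sites, had 21 to 43 counts per library. It held 1.57 to 2.001 CPM in controls and 1.42 to 2.76 CPM in Grhl2_cKO (0.19 ± 0.28, edgeR adjusted p = 0.908). At this depth its limma-voom 95% interval, -0.49 to 0.77, is wide. Its exons also share 71 bases with Mindy1 on the opposite strand and 94 with 6330562C20Rik on its own, so its few counts may depend on how such reads were assigned. Exon overlap was not particular to Anxa9. Anxa3 shared 112 bases with a gene on its own strand. Anxa2, Anxa4 and Anxa11 shared 98, 75 and 113 bases with genes on the opposite strand.

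**Figure D3:**
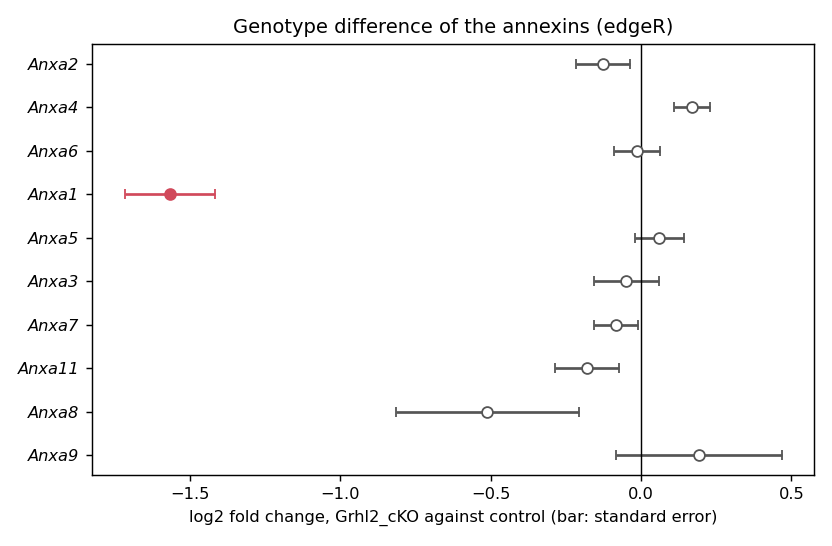
Log2 fold change of each annexin, Grhl2_cKO against control, with its standard error, in order of control level (edgeR, n = 3 per group); the filled point passed the test. Anxa1 stands at -1.57, and the other 9 lie between -0.51 and 0.19.

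Annexin partners and related genes were taken from fixed lists, chosen with earlier results known. Of all tested genes 3.62% were called, and nothing is read from the number called in a list. Of 16 S100 genes, a family of small, mostly calcium-binding proteins of which some dock to annexin tails, 7 were tested and none was called. S100a10, the partner of annexin A2, held 29.6 to 42.0 CPM in controls and 28.3 to 38.4 CPM in Grhl2_cKO (log2 fold change -0.08 ± 0.14, edgeR adjusted p = 0.928). S100a11, which binds annexin A1, held 111.7, 95.9 and 93.0 CPM in controls and 85.4, 69.1 and 78.5 CPM in Grhl2_cKO. The groups did not overlap, but its log2 fold change of -0.37 ± 0.09 missed the threshold (edgeR adjusted p = 0.062), and it was called with DESeq2 (adjusted p = 0.011) and without Grhl2_cKO replicate 1 (edgeR adjusted p = 0.0462), in a range of 0.011 to 0.204. At an unadjusted p under 0.05 S100a11 was also the 1 member of this list.

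Of 9 penta-EF-hand proteins and other partners 1 fell, Capn1, where 3.62% of all tested genes were called. Capn1, the gene of the calcium-dependent protease calpain 1, held 62.4, 59.9 and 59.9 CPM in controls and 48.9, 45.1 and 50.6 CPM in Grhl2_cKO (log2 fold change -0.33 ± 0.07, edgeR adjusted p = 0.0227). Pdcd6, Pef1 and Sri had log2 fold changes of -0.03, -0.01 and 0.01 and were not called, nor was Ahnak, a large partner of the annexin A2 complex (-0.05). Of 8 tested ferlins and copines, further calcium-dependent membrane proteins, Cpne3 fell. Its mean was 129.6 ± 1.03 CPM in controls and 104.2 ± 6.62 CPM in Grhl2_cKO (SD over 3 libraries), or -0.31 ± 0.06 SE as a log2 fold change (edgeR adjusted p = 0.0197). Myof and Dysf, the ferlins of membrane repair, were not called (-0.29 ± 0.09 and 0.43 ± 0.18; edgeR adjusted p = 0.124 and 0.314). None of 11 tested genes of ESCRT and membrane repair was called by edgeR, DESeq2 or limma-voom, 0 had an unadjusted edgeR p under 0.05, and their log2 fold changes ran from -0.38 to 0.04. The calls of Capn1 and Cpne3 were lost in 5 and 4 of the 6 fits without 1 library (edgeR adjusted p up to 0.0994 and 0.0702), while their log2 fold changes stayed between -0.37 and -0.29 for Capn1 and between -0.36 and -0.27 for Cpne3.

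Genes around the known functions of annexin A1 were also listed. Pla2g4a, the gene of cytosolic phospholipase A2, held 18.0, 17.4 and 16.8 CPM in controls and 9.56, 10.98 and 10.95 CPM in Grhl2_cKO. The groups lay well apart, and Pla2g4a fell to 60.3% of control (log2 fold change -0.73 ± 0.10, edgeR adjusted p = 0.00414). It was the 1 call among 8 tested members of its list, where 3.62% of all tested genes were called. The receptor genes Fpr1, Fpr2 and Fpr3 had 0 to 6 counts per library, too few to test. The glucocorticoid receptor gene Nr3c1 and its target Tsc22d3 were not called (-0.13 ± 0.06 and -0.01 ± 0.09, edgeR adjusted p = 0.446 and 0.989). Nr3c1 was nonetheless lower in each knockout library than in any control. Fkbp5, another glucocorticoid target, was higher in each knockout library than in any control but did not pass either (0.19 ± 0.07; edgeR adjusted p = 0.209). None of 6 tested genes of the plasminogen system, whose activation annexin A2 assists, was called by any of these tools, and 1 had an unadjusted p under 0.05, Plat, with 0.39 ± 0.10 as its log2 fold change (edgeR adjusted p = 0.0809), while Plau and Plgrkt lay at 0.28 and -0.07. Of 15 genes of phosphatidylserine exposure and recognition, Gas6, which bridges that lipid to receptor kinases, rose. Its mean was 178.6 ± 10.7 CPM in controls and 255.6 ± 10.2 CPM in Grhl2_cKO (SD over 3 libraries), or 0.52 ± 0.06 SE as a log2 fold change (edgeR adjusted p = 0.00175). Libraries of the genotypes lay fully apart for 6 of the 15, where 18.1% of all tested genes did so. The list was chosen with earlier results known, so nothing is read from that count. Besides Gas6, 4 of the 6 had an unadjusted edgeR p under 0.05, without passing the test. The receptor kinase genes Mertk and Tyro3 lay at -0.47 ± 0.14 and -0.16 ± 0.06 (edgeR adjusted p = 0.113 and 0.199). Ano6, the gene of a lipid scramblase, and Mfge8, of a bridging protein, lay at 0.17 ± 0.05 and 0.20 ± 0.07 (edgeR adjusted p = 0.123 and 0.193).

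**Figure D4:**
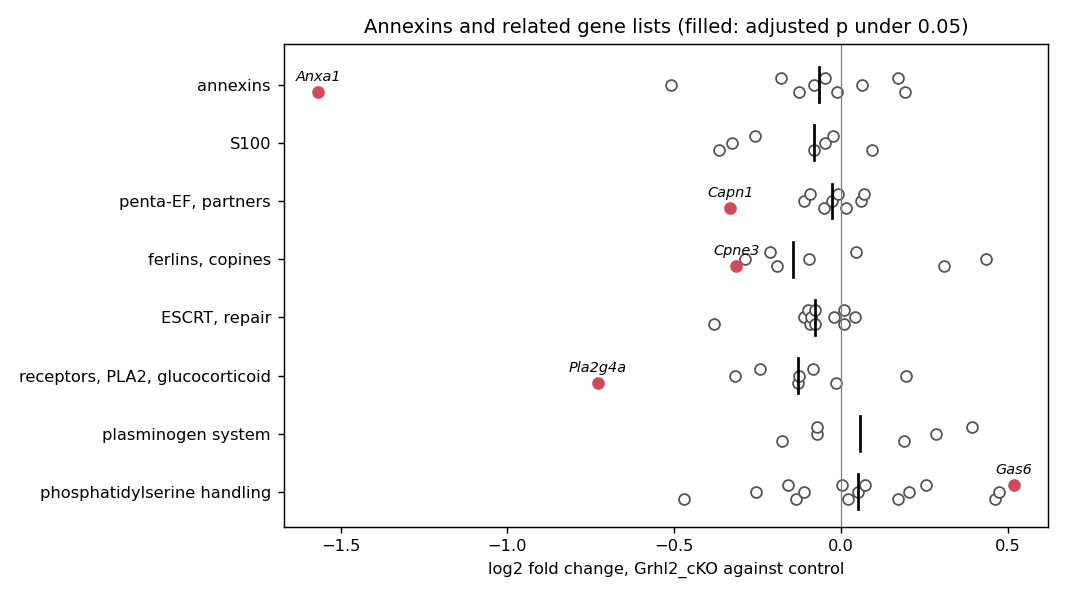
Log2 fold change, Grhl2_cKO against control, of every tested gene of the annexins and 7 related lists; filled points passed the edgeR test and black bars are list medians. Filled points are Anxa1, Capn1, Cpne3 and Pla2g4a, all lower, and Gas6, higher.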

How the data were processed

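Whole-number counts per gene were deposited by the authors for 27179 Entrez genes in 6 libraries, with a gene length column of the deposited table in bases. Per the submitters' processing notes, bcl2fastq 2.17.1.14, featureCounts, edgeR 3.16.5, limma 3.30.12 and the mm10 build were used; per the labels' protocols, the library kit was stranded. Sources used here do not name the aligner, the strand setting or the treatment of reads with several matches. Symbols came from the RefSeq gene table (GRCm38.p6) and matched 25275 IDs, which hold 99.2% of counts.

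The 14842 genes that passed filterByExpr (minimum count 10, minimum total 15) were fitted in edgeR 4.0.16 (R 4.3.3) with TMM scaling and the quasi-likelihood test, genotype alone in the model, 3 against 3, with Benjamini-Hochberg adjustment over all of them at 0.05. Of these 537 were called (3.62%), 355 lower and 182 higher. A total of 3 counts corresponded to 0.174 to 0.223 CPM. The script was tested on simulated counts. The members and gene lists were chosen with earlier results of these data known. Named genes were all members, the 3 genes most like the called member by Pearson r of log2(CPM + 0.1) over the 6 libraries at a mean count of 50 or more, and called or central genes of the lists. Alternatives were other scalings, filters and tools (DESeq2 1.42.0, limma-voom 3.58.1), a term for sex, and fits without each library in turn; the legacy quasi-likelihood fit and GENCODE lengths were chosen after seeing the data.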

Additional observations from a re-analysis of the deposited data

How the results depend on the processing

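Anxa1 was called in all 16 alternative fits, and no other annexin in any of them. Leaving out 1 library at a time gave Anxa1 log2 fold changes from -1.80 to -1.43, 249 to 504 called genes in place of 537 (302 without control replicate 3, 335 without control replicate 7, 257 without Grhl2_cKO replicate 5 and 249 without replicate 10), 0 to 1 S100 genes in place of 0, and 2 to 3 genes of the other lists in place of 4. Those 2, without control replicate 3, control replicate 7 or Grhl2_cKO replicate 1, were Gas6 and Pla2g4a. DESeq2 called 1 S100 gene, S100a11. Leaving out 1 library at a time moved Anxa3 between -0.1671 and 0.0428, Anxa5 between -0.0134 and 0.1365, Anxa6 between -0.0734 and 0.0488 and Anxa9 between -0.0608 and 0.4099 on the log2 scale. Small differences changed sign: Anxa3 to 0.04 without control replicate 1 (0.0428) or Grhl2_cKO replicate 5 (0.0385), Anxa5 to -0.01 without Grhl2_cKO replicate 10 (-0.0134), Anxa6 to 0.0022 with upper-quartile scaling, 0.0488 without control replicate 1 and 0.0419 without Grhl2_cKO replicate 5, and Anxa9 to -0.0608 without Grhl2_cKO replicate 5; the cause was not tested. In the order of control levels, 6 of 10 members kept their rank with CPM in place of CPM per kilobase, and 6 with GENCODE exon lengths. No paired analysis was possible because the sample labels used here give no pairing. A replicate number found in both genotypes is not stated to mark a pair. Depth limits Anxa9, with 21 to 43 counts per library.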
